A study of Mus musculus with 15 samples.

Results

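Mitochondria in heart muscle cells are joined by fusion, divided by fission and removed by mitophagy, the selective form of autophagy. The 8 genes described here, Mfn1, Mfn2, Opa1, Dnm1l, Mff, Fis1, Pink1 and Bnip3, encode proteins of these steps. They were taken by name from a deposited table of 9666 rows of mRNA levels, and all 8 were found in it. The choice was made with earlier results of these data known. All 8 were also among the 9389 rows with at least 1 RPKM in at least 4 of the 15 libraries, the set used for testing. RPKM is a read number scaled to gene length and to the depth of the library, so levels can be set side by side between genes.

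All libraries were made from cardiomyocytes of the ventricles, and the mice were wild-type C57BL/6, with no transgene or treatment named for any group. There were 7 libraries from adults of 8 to 12 weeks, 4 from postnatal day 1 (P1) and 4 from postnatal day 3 (P3). Total RNA was extracted with TRIzol, and the protocol names both cardiac tissue and cells as its source. Whether each library came from a separate animal or from a pool is not stated by the labels. The p-values therefore describe the spread among these libraries, which may be technical. The question is how the fusion, fission and mitophagy genes of neonatal heart muscle cells compare with those of adult ones.

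Fusion takes place in 2 steps. The mitofusins Mfn1 and Mfn2 are GTPases that tether and fuse outer membranes, and Opa1 is the GTPase that fuses inner membranes and keeps cristae in shape. Fission is carried out by Dnm1l (also called Drp1), a cytosolic GTPase that assembles around mitochondria at receptors such as Mff, while Fis1 is another outer membrane protein linked to fission. In mitophagy, Pink1 is the kinase that accumulates on damaged mitochondria and activates the ubiquitin ligase parkin, and Bnip3 is an outer membrane receptor that binds autophagosomes directly and is a known target of hypoxia-inducible factor (HIF). The heart is rich in mitochondria, and the switch to oxidative metabolism after birth is accompanied by a rebuilding of its mitochondrial network.

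Promoters of all 8 genes were found among RefSeq promoters of build GRCm38.p6, which run from 250 bases before to 50 after each start site. The 2 stretches below are shown because they hold matches to motifs of HIF and of nuclear respiratory factor 1, factors tied to hypoxia and to mitochondrial biogenesis. Both are written 5′ to 3′ in the direction of the gene, with the match in capitals. The Bnip3 stretch lies at chr7:138909584-138909638 on the minus strand, with the match starting at position -107 from the start site, and the Opa1 stretch at chr16:29579266-29579295 on the plus strand, with the match starting at position -57.
Bnip3: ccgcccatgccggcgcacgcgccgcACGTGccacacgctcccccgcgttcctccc
Opa1: tggctccccgcGCATGCGCatgtcatccgc
The HIF core ACGTG was searched on both strands and was found in promoters of 2 of the 8 genes, Bnip3 and Mfn2. It was present in 31.0% of the genes of the deposited table with a promoter and in 19.7% of all 32544 promoters. In Bnip3 the match on one strand overlapped a match on the other. The nuclear respiratory factor 1 core GCATGCGC was found in 1 of the 8 genes, Opa1, likewise on both strands in overlap, against 6.79% of the genes of the table. The estrogen-related receptor element TNAAGGTCA and the MEF2 site CTANNNNTAG had matches in 0 of the 8 genes, against 0.83% and 3.79% of the genes of the table. A match describes letters in a window of 300 bases and was not tested as a site.

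Changes below are differences between group means on the log2(RPKM + 0.5) scale, from a limma fit over the whole tested set, with p-values adjusted by the Benjamini-Hochberg method over those genes. A gene was called where the adjusted p was under 0.05 and the change was at least 1 in size. The whole distribution was shifted between ages: the median tested gene of a library had 2.14 to 3.71 RPKM in adult, 8.84 to 9.14 RPKM in P1 and 9.30 to 10.04 RPKM in P3 libraries. The median change of all tested genes was therefore 1.36 for P1 against adult, 1.48 for P3 against adult and 0.09 for P3 against P1. For this reason each gene is also given relative to the median gene of its library and relative to the mean of 73 nuclear genes of oxidative phosphorylation, the subunits of the respiratory chain and ATP synthase. Both comparisons with adult use the same 7 adult libraries.

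Cell type markers were read beside these genes. All 15 cardiomyocyte markers were in the table, and their mean log2 level was 9.51 to 10.2 in adult libraries, 7.53 to 8.85 in P1 and 5.29 to 7.97 in P3. For the 11 endothelial markers in the table, of 15 listed, it was 0.01 to 5.19, 4.26 to 5.40 and 5.87 to 7.31. For the 6 fibroblast markers, of 12 listed, it was -0.06 to 3.26, 3.59 to 6.67 and 4.54 to 5.59, and for 5 mural markers, of 10 listed, 1.91 to 3.27, 3.49 to 4.68 and 4.46 to 5.24. The table lists only genes above 0.1 RPKM in every library, so no marker in it is at 0, and the 10 immune and 8 erythroid markers are not analysed here. P1 replicate 1 had the lowest cardiomyocyte level and the highest fibroblast level of P1, and P3 replicate 1 had the highest cardiomyocyte level of P3. In bulk RNA, fewer cells of a type and less RNA per cell cannot be told apart.

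In adult libraries Pink1 was the most abundant of the 8 genes and Dnm1l the least. The adult order by mean level was Pink1, Mfn2, Bnip3, Mfn1, Mff, Fis1, Opa1 and Dnm1l, and every neighbouring pair in it overlapped in range. Within single libraries the order was firmer, with Bnip3 above Mfn1, Mfn1 above Mff and Opa1 above Dnm1l in 7 of 7 adult libraries. At P3 Fis1 came first and Mff second, and Mfn2 and Mfn1 were at the fourth and the sixth place. Every neighbouring pair also overlapped in range at P1 and at P3.

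**Figure D1:**
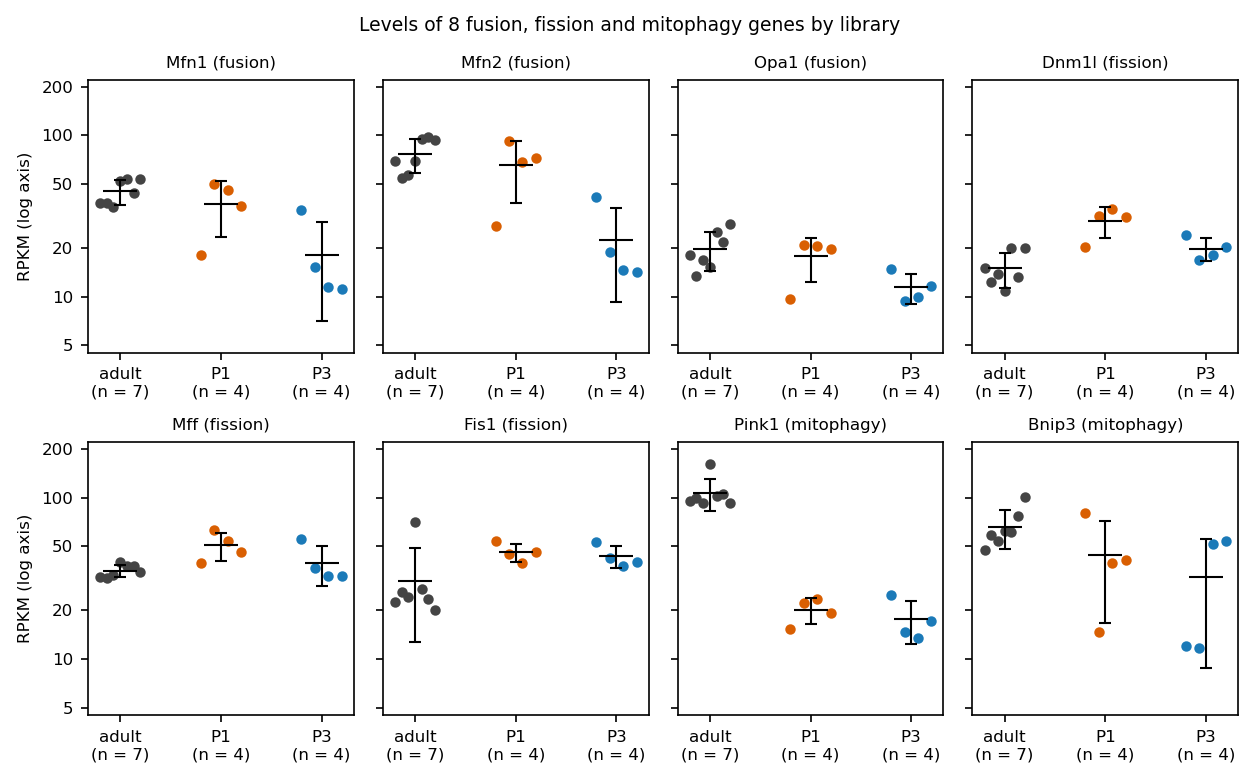
RPKM on a log axis for each of the 8 genes in adult, P1 and P3 libraries. Points are libraries, and bars are the group mean and SD. Pink1 in all 8 neonatal libraries, at 13.5 to 25.03, lies below all 7 adult ones, while Fis1, Mff and Dnm1l have neonatal group means above the adult mean. Among all tested genes, 4.86% have all P1 libraries and 7.99% all P3 libraries below all adult ones.

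The outer membrane fusion genes Mfn1 and Mfn2 were lower at P3 than in adult. Mfn1 (ENSMUSG00000027668.13, chromosome 3, 32529465 to 32579239, plus strand) had 35.9, 43.9 and 53.8 RPKM as the lowest, median and highest adult value. Its P1 values were 18.3, 50.1, 45.7 and 36.7 RPKM in replicates 1 to 4, and its P3 values were 34.4, 15.3, 11.5 and 11.2 RPKM. All 4 P3 libraries lay below all adult ones, P3 replicate 1 only just, whereas at P1 replicate 1 alone lay below the adult range. Among all tested genes, 7.99% had all P3 libraries below all adult ones. The group means were 45.01 RPKM ± 7.95 (SD, n = 7) in adult, 37.7 RPKM ± 14.1 (SD, n = 4) at P1 and 18.1 RPKM ± 11.01 (SD, n = 4) at P3. The log2 change of Mfn1 was -0.33 (SE 0.30, adjusted p = 0.31) for P1 and -1.43 (SE 0.30, adjusted p = 2.1e-04) for P3, both from limma against adult.

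Mfn2 (ENSMUSG00000029020.13, chromosome 4, 147873599 to 147904704, minus strand) also tethers mitochondria to the endoplasmic reticulum. It had 54.3, 69.6 and 97.8 RPKM as the lowest, median and highest adult value. Its P1 values were 27.5, 92.7, 68.8 and 72.0 RPKM and its P3 values 41.7, 18.9, 14.6 and 14.2 RPKM in replicates 1 to 4. As for Mfn1, P1 replicate 1 was the lowest and P3 replicate 1 the highest of its group. The P3 range lay below the adult range, as for 7.99% of all tested genes. The means were 76.8 RPKM ± 18.7 (SD, n = 7), 65.2 RPKM ± 27.3 (SD, n = 4) and 22.4 RPKM ± 13.1 (SD, n = 4) in adult, P1 and P3. The limma log2 change against adult was -0.32 (SE 0.33, adjusted p = 0.36) at P1 and -1.87 (SE 0.33, adjusted p = 3.2e-05) at P3. Within adult libraries Mfn2 was 54.3 to 69.6 RPKM in replicates 1 to 4 and 94.1 to 97.8 RPKM in replicates 5 to 7, and these sets also differ in the value of a single read and in recovered depth.

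Between the neonatal ages both mitofusins were called lower at P3 than at P1, by -1.10 (SE 0.34, adjusted p = 0.048) for Mfn1 and -1.54 (SE 0.37, adjusted p = 0.020) for Mfn2 in limma. These were 2 of the 8 genes, beside 5.31% of all tested genes called lower and 1.40% called higher in this comparison. The extreme libraries of each age were also extreme in the cardiomyocyte markers: the low P1 library was the one with the lowest marker level of P1, and the high P3 library the one with the highest of P3. Opa1, Dnm1l, Mff and Pink1 were likewise lowest of P1 and highest of P3 in these libraries. The part of cell composition in this result was not tested. Without both of those libraries, an alternative added after seeing the data, the changes were -1.76 for Mfn1 and -2.25 for Mfn2. Neither call held without P1 replicate 2, 3 or 4 or without P3 replicate 2, 3 or 4, where the adjusted p was 0.057 to 0.091 for Mfn2 and 0.10 to 0.18 for Mfn1, or in a fit of the 8 neonatal libraries alone, with adjusted p of 0.062 and 0.097. Over these leave-outs of a neonatal library the changes were -1.08 to -0.93 for Mfn1 and -1.51 to -1.33 for Mfn2. With a replicate block neither call held, at an adjusted p of 0.13 for Mfn1 and 0.073 for Mfn2 in limma and the same changes. The Mfn1 call was also lost without adult replicate 1, 2, 3, 5, 6 or 7, at an adjusted p of 0.051 to 0.061 in limma and the same change, with a pseudocount of 0.1 (change -1.12, adjusted p = 0.056) and at equal RPKM sums (change -0.97), while the Mfn2 call held in each of these.

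The 2 mitofusins did not fall by equal amounts. The Mfn2 to Mfn1 ratio of RPKM within a library had a median of 1.75 in adult, 1.68 at P1 and 1.25 at P3. P3 libraries held a narrow range of 1.22 to 1.27, below every adult library (1.33 to 2.23) and every P1 library (1.503 to 1.96). The mean log2 ratio was 0.44 lower at P3 than in adult, a difference of -0.44 (SE 0.09, exact two-sided permutation p = 0.0061, adjusted p = 0.024 over 12 ratio tests), and 0.0061 is the smallest p this design allows. Against adult replicates 1 to 4 alone it was -0.30 and did not pass (adjusted exact permutation p = 0.069). Against P1 the difference was also -0.44 (SE 0.10), with an exact permutation p of 0.029, the smallest possible for 4 against 4, and an adjusted p of 0.069. P1 and adult did not differ beyond their spread, with a difference of 0.00 (SE 0.14, exact permutation p = 0.97). A ratio within a library does not depend on how libraries are scaled. How many other gene pairs separate P3 from adult as fully was not computed.

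Opa1, the inner membrane fusion gene (ENSMUSG00000038084.16, chromosome 16, 29579334 to 29654884, plus strand), was not called at either age on the deposited scale. Its lowest, median and highest adult values were 13.4, 18.1 and 28.4 RPKM. At P1 it had 9.72, 21.0, 20.8 and 19.6 RPKM and at P3 14.8, 9.42, 10.01 and 11.6 RPKM in replicates 1 to 4. P1 replicates 2 to 4 sat inside the adult range with replicate 1 below it, and at P3 replicate 1 sat inside it with the others below. The limma log2 change was -0.17 (SE 0.24, adjusted p = 0.51) at P1 and -0.75 (SE 0.24, adjusted p = 0.0080) at P3, the latter under the size needed for a call. In adult replicates 1 to 4 Opa1 was 13.4 to 18.1 RPKM and in replicates 5 to 7 it was 21.9 to 28.4 RPKM, and against replicates 5 to 7 alone the P3 change was -1.11 with an adjusted p of 0.0015.

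None of the 3 fission genes was called against adult at either age on the deposited scale by limma. Dnm1l, the fission GTPase (ENSMUSG00000022789.15, chromosome 16, 16312230 to 16358959, minus strand), had 10.8, 13.8 and 19.9999 RPKM as its lowest, median and highest adult value. It had 20.3, 31.5, 34.8 and 31.1 RPKM at P1 and 24.0, 16.8, 18.1 and 20.3 RPKM at P3. All 4 P1 libraries were above all adult ones, as for 65.1% of all tested genes, and at P3 replicates 1 and 4 were. Relative to the median gene of the library, the P1 and adult ranges of Dnm1l overlapped. On that scale 0 P1 libraries lay above the adult range and 1 below it. The limma log2 change of Dnm1l was 0.95 (SE 0.21, adjusted p = 3.2e-04) at P1, just under the size needed for a call, and 0.41 (SE 0.21, adjusted p = 0.072) at P3. Without P1 replicate 1 the P1 change was 1.12 with an adjusted p of 9.9e-05, which is a call.

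Mff, the receptor for Dnm1l (ENSMUSG00000026150.14, chromosome 1, 82724890 to 82752394, plus strand), was the steadiest of the 8 genes in adult libraries, with a coefficient of variation of 8.69%. It had 31.9, 34.5 and 39.7 RPKM as its lowest, median and highest adult value, 39.3, 62.7, 54.2 and 45.9 RPKM at P1 and 55.2, 36.6, 32.5 and 32.5 RPKM at P3. P1 replicates 2 to 4 and P3 replicate 1 were above the adult range and the others within it. The log2 change of Mff was 0.50 (SE 0.19, adjusted p = 0.021) at P1 and 0.12 (SE 0.19, adjusted p = 0.56) at P3 in limma, neither a call.

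Fis1 (ENSMUSG00000019054.13, chromosome 5, 136953275 to 136966234, plus strand) had 20.2, 24.1 and 70.8 RPKM as its lowest, median and highest adult value. The highest came from adult replicate 4, and the other 6 adult libraries had 20.2 to 27.0 RPKM. At P1 Fis1 had 53.9, 44.4, 39.4 and 45.7 RPKM and at P3 52.7, 42.4, 37.8 and 40.0 RPKM. All 8 neonatal libraries were above 6 of the adult libraries and below the seventh. Among all tested genes, 65.1% had all P1 libraries and 64.3% all P3 libraries above all adult ones. Relative to the median gene of the library, 3 of the 4 P1 libraries and 4 of the 4 P3 libraries lay below the adult range. On the deposited scale the limma log2 change of Fis1 was 0.70 (SE 0.27, adjusted p = 0.021) at P1 and 0.61 (SE 0.27, adjusted p = 0.039) at P3. Both were under the size needed for a call.

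The Opa1 to Dnm1l ratio sets the inner membrane fusion gene against the fission GTPase within a library. Opa1 was above Dnm1l in every adult library, at ratios of 1.09 to 1.67, and below it in every neonatal one, at 0.48 to 0.67 at P1 and 0.55 to 0.62 at P3. The mean log2 ratio differed from adult by -1.13 (SE 0.12) at P1 and by -1.15 (SE 0.08) at P3, each with an exact two-sided permutation p of 0.0061, the smallest possible, and an adjusted p of 0.024. P3 and P1 did not differ beyond their spread, with a difference of -0.03 (SE 0.10, exact permutation p = 0.80). With adult replicates 1 to 4 alone the differences were -1.03 and -1.06, and with replicates 5 to 7 alone -1.25 and -1.28. The adjusted p was 0.069 and 0.14 in these smaller groups by the exact permutation test. How many other gene pairs separate the ages as fully was not computed. Among single tested genes, all P1 libraries lay above all adult ones for 65.1% and below them for 4.86%.

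The mean log2 level of the 3 fusion genes minus that of the 3 fission genes, given as a description, was 0.71 ± 0.30 (SD, n = 7) in adult, -0.28 ± 0.50 (SD, n = 4) at P1 and -1.02 ± 0.31 (SD, n = 4) at P3. Adult libraries ran from 0.27 to 1.11, P1 from -1.02 to 0.05 and P3 from -1.25 to -0.56. P1 replicate 1, at -1.02, lay among the P3 libraries, and the other P1 libraries lay at -0.11 to 0.05. The cardiomyocyte marker level of P1 replicate 1, at 7.53, was also the lowest of P1, and its part in this value was not tested.

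The Mff to Fis1 ratio, within the fission genes, had a median of 1.39 in adult, 1.19 at P1 and 0.862 at P3. All groups overlapped. Adult replicate 4 had 0.561, the other adult libraries 1.22 to 1.71, P1 libraries 0.730 to 1.41 and P3 libraries 0.813 to 1.05, so without that library adult would overlap P1 but not P3. The log2 difference was -0.20 (SE 0.30, exact permutation p = 0.50) for P1 and -0.49 (SE 0.22, exact permutation p = 0.13) for P3 against adult. Without adult replicate 4 the P3 difference was -0.69, with an adjusted exact permutation p of 0.029. That library was the 1 adult library not above the P3 range. Leaving it out therefore separated the groups in full, and the exact p before adjustment was the smallest they allow. With all libraries the adjusted exact permutation p was 0.23.

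**Figure D2:**
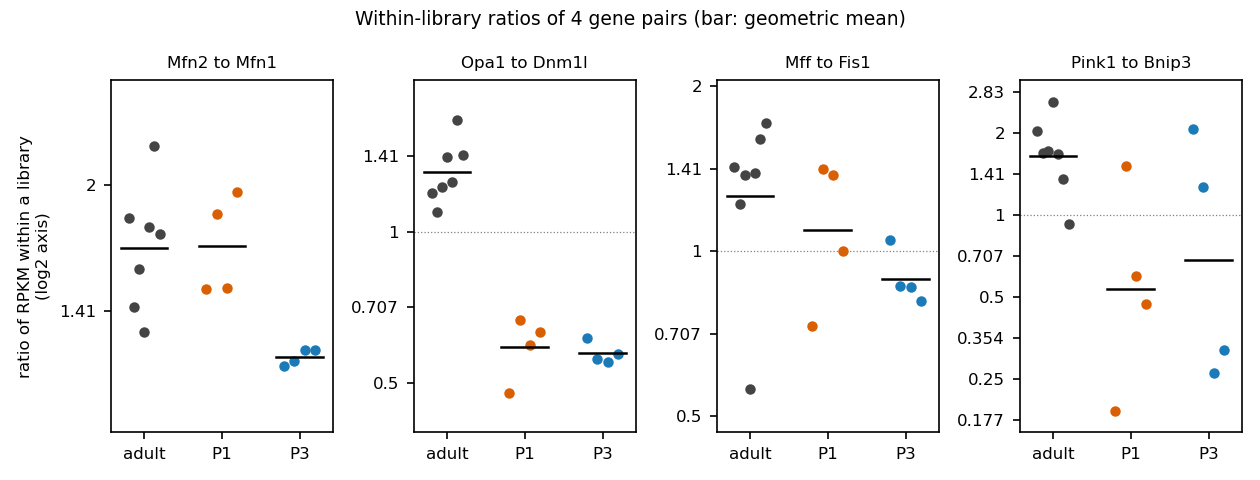
Ratio of RPKM between 2 genes of the same library, on a log2 axis, for 4 pairs. Points are libraries, black bars are geometric means, and the dotted line marks a ratio of 1. Opa1 to Dnm1l is above 1 in all 7 adult libraries and below it in all 8 neonatal ones, and Mfn2 to Mfn1 is 1.22 to 1.27 at P3 against 1.33 to 2.23 in adult.

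Pink1, the mitophagy kinase (ENSMUSG00000028756.12, chromosome 4, 138313409 to 138326307, minus strand), had the largest change of the 8 genes on the deposited scale and was lower at both neonatal ages on it. Its lowest, median and highest adult values were 92.6, 98.8 and 160.9 RPKM, the highest in adult replicate 4. It had 15.4, 22.2, 23.6 and 19.2 RPKM at P1 and 25.03, 14.8, 13.5 and 17.1 RPKM at P3. The neonatal and adult ranges were far apart, and the P1 and P3 ranges overlapped. All P1 libraries lay below all adult ones for 4.86% of all tested genes, and all P3 libraries for 7.99%. The limma log2 change of Pink1 was -2.37 (SE 0.21, adjusted p = 9.0e-09) at P1, -2.58 (SE 0.21, adjusted p = 1.9e-09) at P3 and -0.21 (SE 0.24, adjusted p = 0.59) between P3 and P1. Only 0.85% of all tested genes had a lower change than Pink1 at P1, and 2.28% at P3. The call held without each of the 15 libraries in turn, with changes of -2.46 to -2.26 at P1 and -2.76 to -2.47 at P3.

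Pink1 was the 1 gene of the 8 called lower at P1 on the deposited scale, where 4.32% of all tested genes were called lower and 62.7% higher. At P3 4 of the 8 were called lower, Mfn1, Mfn2, Pink1 and Bnip3, beside 9.16% of all tested genes, while 62.7% were called higher. On this scale limma called 0 of the 8 higher in any of the 3 comparisons. At an unadjusted p under 0.05, Dnm1l, Mff and Fis1 had positive changes at P1 and Fis1 at P3, and 0 of the 8 did between P3 and P1.

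Bnip3 (ENSMUSG00000078566.8, chromosome 7, 138890836 to 138909519, minus strand) varied more between libraries of 1 neonatal age than any other of the 8 genes. Its lowest, median and highest adult values were 47.0, 60.9 and 100.5 RPKM. At P1 it had 80.5, 14.6, 39.4 and 40.8 RPKM and at P3 12.1, 11.7, 51.2 and 53.4 RPKM in replicates 1 to 4. P1 replicate 1 lay inside the adult range and the other P1 libraries below it, and P3 fell into a low pair, replicates 1 and 2, and a pair inside the adult range, replicates 3 and 4. The coefficient of variation was 27.1% in adult, 62.1% at P1 and 72.8% at P3, against at most 60.8% for any other of the 8 genes at either neonatal age. Counting error of the reads recovered for Bnip3 was at most 7.18%.

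The limma log2 change of Bnip3 was -0.77 (SE 0.44, adjusted p = 0.11) at P1, -1.33 (SE 0.44, adjusted p = 0.0090) at P3 and -0.56 (SE 0.50, adjusted p = 0.48) between P3 and P1. The P3 call was lost without P3 replicate 1 (change -0.99) or replicate 2 (change -0.98), and against adult replicates 1 to 4 alone (change -1.12, adjusted p = 0.062). Without P1 replicate 1 the P1 change was -1.14 with an adjusted p of 0.026.

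Bnip3 levels were set beside 20 other HIF target genes, a list that included Slc2a1, Pdk1 and Adm. Among P1 libraries their mean log2 level was highest in replicate 1, at 5.26, and lowest in replicate 2, at 4.26, the libraries with the highest and lowest Bnip3. Among P3 libraries it was 4.60 and 4.75 in replicates 1 and 2, where Bnip3 was low, and 5.05 and 4.96 in replicates 3 and 4, where it was high. Between ages they did not run together. On the deposited scale the HIF target mean was 2.83 to 3.80 in adult libraries, below every neonatal library. The Bnip3 group mean was instead highest in adult. The median log2 change of the HIF targets was 1.34 at P1 and 1.63 at P3, beside 1.36 and 1.48 for all tested genes. Relative to the median gene of the library, their mean level was 1.37 to 1.72 in adult libraries, inside both neonatal ranges. On that scale all P1 and P3 libraries lay below all adult ones for Bnip3, as they did for Mfn1, Mfn2, Opa1, Mff and Pink1. The share of all tested genes with such a separation was not computed on that scale. P1 replicate 1 also had the highest fibroblast marker level of all 15 libraries, at 6.67, and the part of this in its Bnip3 level was not tested.

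The Pink1 to Bnip3 ratio had a median of 1.68 in adult, 0.534 at P1 and 0.793 at P3, with overlap between all groups. The difference from adult was -1.60 (SE 0.63, exact permutation p = 0.018, adjusted p = 0.055) at P1 and -1.25 (SE 0.74, exact permutation p = 0.097, adjusted p = 0.19) at P3, so neither passed after adjustment over the 12 ratio tests.

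**Figure D3:**
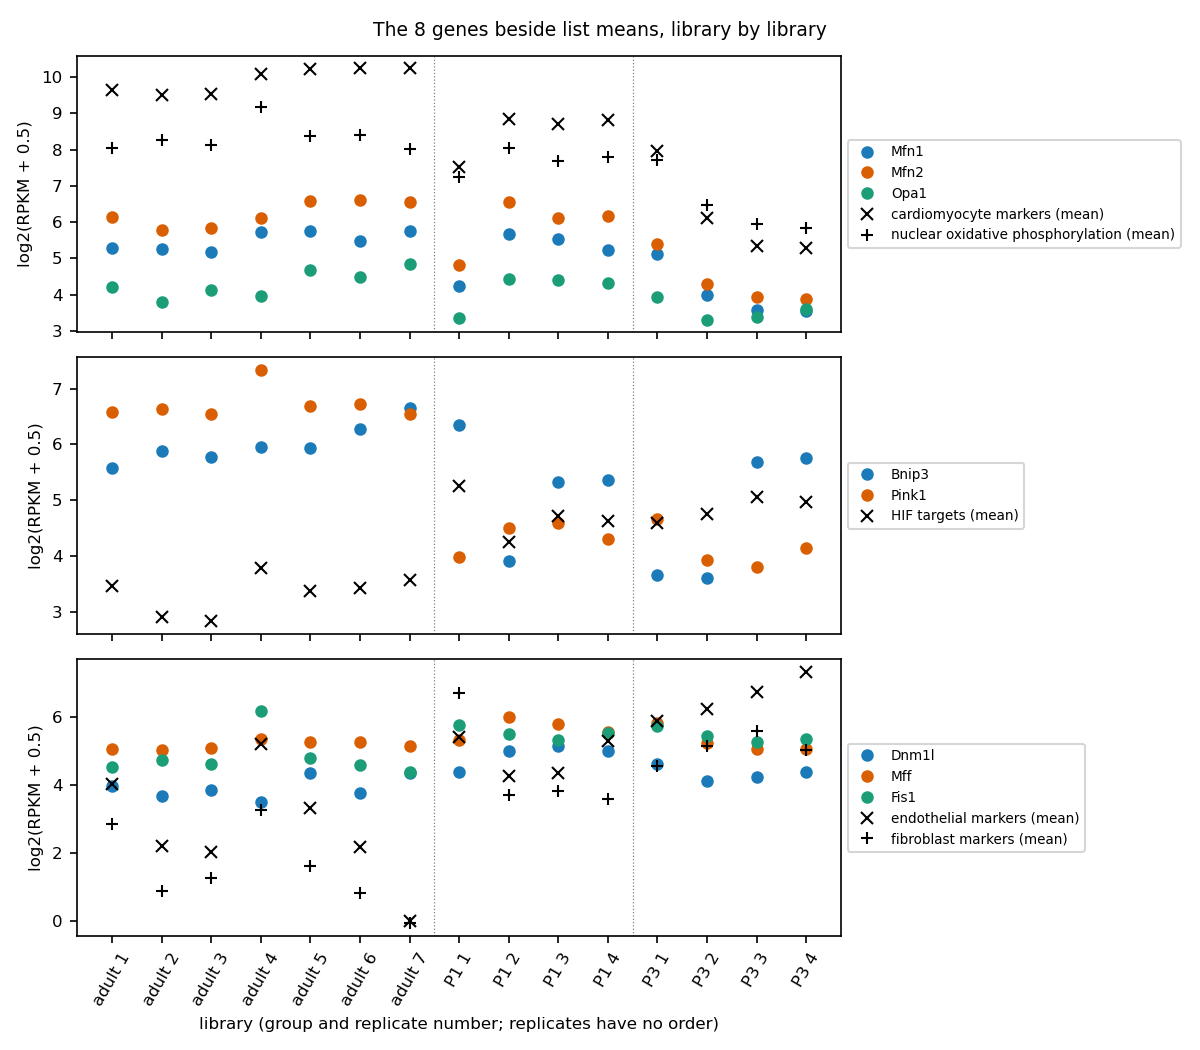
Log2(RPKM + 0.5) of the 8 genes in each library, with the mean of gene lists measured in the same library as crosses and plus signs. Dotted lines separate adult, P1 and P3. The fusion genes, Dnm1l, Mff, Pink1 and the cardiomyocyte markers share the low P1 replicate 1 and the high P3 replicate 1. Bnip3 and the HIF targets are both highest in P1 replicate 1 within P1.

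Relative to the median gene of the library, all 8 genes had negative changes against adult at both ages, and most were called. At P1 5 of the 8 were called lower, with log2 changes of -1.78 for Mfn1, -1.78 for Mfn2, -1.63 for Opa1, -3.83 for Pink1 and -2.22 for Bnip3. On this scale 21.6% of all tested genes were called lower and 13.7% higher. Dnm1l at -0.50, Mff at -0.96 and Fis1 at -0.75 were not called at P1, and their sign is the reverse of that on the deposited scale. At P3 7 of the 8 were called lower, all but Fis1 at -0.93, where 27.1% of all tested genes were called lower and 19.1% higher. The P3 changes were -2.98 for Mfn1, -3.41 for Mfn2, -2.29 for Opa1, -1.14 for Dnm1l, -1.43 for Mff, -4.13 for Pink1 and -2.88 for Bnip3. Between P3 and P1, Mfn1 at -1.19 and Mfn2 at -1.64 were called lower, beside 7.54% of all tested genes called lower and 1.18% higher.

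Relative to the nuclear genes of oxidative phosphorylation, the picture turned. These 73 genes had a median log2 change of -0.64 at P1 and -1.78 at P3 on the deposited scale. Measured against them, Dnm1l at 1.61, Mff at 1.16 and Fis1 at 1.36 were called higher at P1 and Pink1 at -1.71 was called lower, where 80.6% of the tested set was called higher and 1.94% lower. At P3 Opa1 at 1.11, Dnm1l at 2.27, Mff at 1.98 and Fis1 at 2.47 were called higher and none of the 8 lower, where 89.9% of the tested set was called higher and 1.84% lower. At P3 Mfn2 at -0.01 (SE 0.28) and Mfn1 at 0.43 (SE 0.25) did not pass the test against these genes. Pink1 at -0.72 (SE 0.24, adjusted p = 0.0067 in limma) was under the size needed for a call. Between P3 and P1 Fis1 at 1.11 was called higher on this scale, beside 69.3% of all tested genes called higher and 0.714% lower.

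Across the 3 scales the order of the 8 genes did not move, since scaling shifts all genes of a library alike. Pink1 had the lowest change and Dnm1l, Fis1 and Mff the highest in both comparisons with adult. A direction for Dnm1l, Mff or Fis1 therefore depends on the scale, whereas the change of Pink1 was negative on all 3 scales at both ages and was called on all but 1 of them, the oxidative phosphorylation scale at P3.

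**Figure D4:**
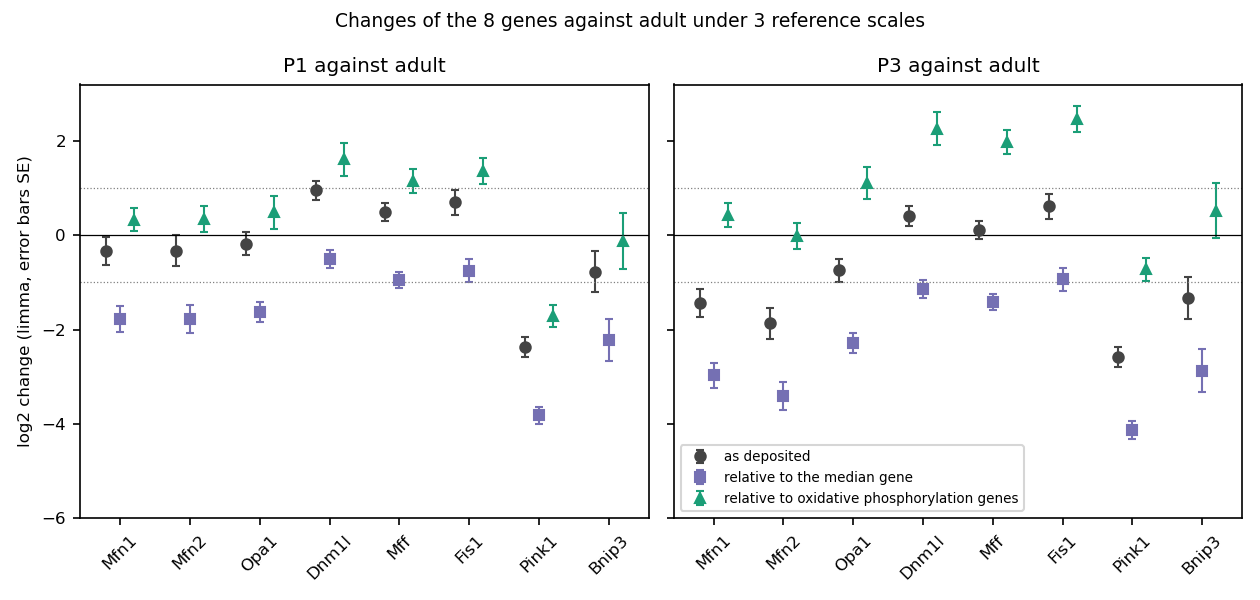
Log2 change against adult from limma for each gene at P1 (left) and P3 (right) on 3 scales: as deposited, relative to the median gene and relative to the oxidative phosphorylation genes. Error bars are SE, and dotted lines mark a change of 1 in either direction. Pink1 is below 0 on every scale, and Dnm1l, Mff and Fis1 are above 0 as deposited and below 0 relative to the median gene.

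Other genes of the same steps were read from lists of partners and regulators that hold none of the 8. Of 16 fusion partners tested, 3 were called higher and 0 lower at P1, and 2 higher and 4 lower at P3, on the deposited scale. Their median log2 change was 0.75 at P1 and 0.21 at P3, beside 1.36 and 1.48 for all tested genes. The share of all tested genes was 62.7% called higher at each age, 4.32% lower at P1 and 9.16% lower at P3. Relative to the median gene, 6 were called lower at P1 and 12 at P3, and 0 higher, beside 21.6% and 27.1% of all tested genes called lower. Yme1l1, a protease that cleaves Opa1, was 1.54 (SE 0.15) higher at P1 and 1.66 (SE 0.15) higher at P3. These changes are on the deposited scale. Oma1, the other protease that cleaves Opa1, moved the other way on it, at -1.20 (SE 0.24, adjusted p = 1.5e-04 in limma) at P3. Miga1, an outer membrane protein that promotes fusion, was 1.42 and 1.03 higher at P1 and P3. Chchd3, a subunit of the cristae-organizing MICOS complex, had -1.93 and Rhot2, which links mitochondria to motors, -1.497 at P3. Between P3 and P1 1 of the 16, Chchd3, was called, at -1.17. Relative to the median gene, Yme1l1 was at 0.09 at P1 and 0.11 at P3 (adjusted p = 0.67 and 0.59 in limma) and did not pass. On that scale Miga1 was at -0.04 and -0.51 and Oma1 at -1.92 and -2.74.

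Of 13 fission partners tested, 5 were called higher and 1 lower both at P1 and at P3, with a median log2 change of 0.49 at P1 and 0.57 at P3. Beside them, 62.7% of all tested genes were called higher at each age, with medians of 1.36 and 1.48. Senp5, a protease that removes SUMO from proteins, Spire1, an actin nucleator, and Dnm2, a dynamin, had changes of 2.38, 2.16 and 1.87 at P1 and 2.85, 2.73 and 1.96 at P3. Mtfp1, an inner membrane protein that promotes fission, was the 1 called lower, with -1.85 (SE 0.42) at P1 and -3.68 (SE 0.42) at P3, and it was also the 1 called between P3 and P1, at -1.83. Its group means were 36.3 RPKM ± 10.8 (SD, n = 7) in adult, 10.7 RPKM ± 6.06 (SD, n = 4) at P1 and 3.27 RPKM ± 3.78 (SD, n = 4) at P3. Relative to the median gene, 0 were called higher and 5 lower at P1, and 2 higher, Senp5 and Spire1, and 6 lower at P3. On that scale 21.6% of all tested genes were called lower at P1 and 27.1% at P3, and 13.7% and 19.1% higher.

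Of 30 other mitophagy genes tested, 14 were called higher and 2 lower at P1, and 12 higher and 3 lower at P3, with medians of 0.91 and 0.67. Among all tested genes 62.7% were called higher at each age, with medians of 1.36 and 1.48. Tbk1, the kinase that phosphorylates mitophagy adaptors, was 2.49 (SE 0.20) higher at P1 and 3.10 (SE 0.20) higher at P3. It was the 1 gene of the list called higher relative to the median gene at either age. Of the list, 9 were called lower on that scale at P1 and 13 at P3, beside 21.6% and 27.1% of all tested genes. The share of all tested genes called higher on it was 13.7% and 19.1%. On the deposited scale Sqstm1, the adaptor p62, was 2.17 and 2.41 higher. Optn, an adaptor of the Pink1 and parkin pathway, was called lower at P1, at -1.07 (SE 0.19). Gbas, also known as Nipsnap2, had -1.56 at P1 and -2.82 at P3, and Vdac1, the outer membrane channel, -1.12 at P3. Bnip3l, the close relative of Bnip3 also called Nix, was at 6.86 RPKM ± 1.15 (SD, n = 7) in adult and 30.2 RPKM ± 9.36 (SD, n = 4) at P3, a change of 2.02 (SE 0.25, adjusted p = 4.4e-07 in limma), whereas Bnip3 itself was lower at P3. Relative to the median gene the Bnip3l change at P3 was 0.48 (adjusted p = 0.079 in limma) and did not pass. Between P3 and P1 Gbas and Vdac1 were the 2 called lower, and parkin is not analysed here.

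The core autophagy genes, shared by mitophagy and bulk autophagy, had median changes near those of the whole table. Of 46 tested, 26 were called higher and 2 lower at P1, and 31 higher and 2 lower at P3, with medians of 1.17 and 1.29. This stood beside 62.7% of all tested genes called higher at each age. The 2 called lower were Map1lc3a, an LC3 that coats autophagosomes, at -1.33 and -2.39, and Atg10, an enzyme of the conjugation step, at -1.63 and -2.16. Uvrag, a subunit of a lipid kinase complex, and Vps11, a subunit of tethering complexes, were called higher, at 2.50 and 2.35 at P1. Relative to the median gene, 1 was called higher and 9 lower at P1, and 1 higher and 10 lower at P3. On that scale 21.6% of all tested genes were called lower at P1 and 27.1% at P3, and 13.7% and 19.1% higher. None of the 46 was called between P3 and P1 on the deposited scale in limma.

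Regulators of mitochondrial biogenesis went in both directions. Of 23 tested, 7 were called higher and 3 lower at P1, and 6 higher and 6 lower at P3, with medians of 0.67 and 0.39. Here too 62.7% of all tested genes were called higher at each age. Pprc1, a PGC-1 related coactivator, was 3.58 and 4.08 higher, and Nrf1, nuclear respiratory factor 1, was 2.06 and 2.56 higher at P1 and P3. Ppara, a nuclear receptor of fat oxidation, had -1.51 and -2.41. Between P3 and P1 3 were called lower, among them the estrogen-related receptors Esrrg at -2.21 and Esrra at -1.34. Relative to the median gene, 1 was called higher and 9 lower at P1, and 3 higher and 14 lower at P3. On that scale 21.6% of all tested genes were called lower at P1 and 27.1% at P3, and 13.7% and 19.1% higher.

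Genes of the mitochondrial outer membrane and of protein import, a gauge of the organelle as a whole, had 10 of 22 called higher and 0 lower at P1, and 5 higher and 2 lower at P3, with medians of 0.94 and 0.46. For the lists of this paragraph the share of all tested genes was 62.7% called higher at each age, 4.32% lower at P1 and 9.16% lower at P3. Relative to the median gene that share was 13.7% higher and 21.6% lower at P1, and 19.1% higher and 27.1% lower at P3. Relative to the median gene, 0 of the 22 were called higher at either age, 5 lower at P1 and 13 lower at P3. Tomm20, a receptor of the import pore, was 2.06 and 1.81 higher, and Cs, citrate synthase of the matrix, had -1.36 at P3. Of the 73 oxidative phosphorylation genes 0 were called higher, 10 were called lower at P1 and 71 at P3, and 31 were lower at P3 than at P1. Cox7a1, a muscle form of a cytochrome oxidase subunit, had the largest fall of these, at -3.48 and -5.36. Of the HIF targets, 11 of 20 were called higher and 1 lower at P1, and 13 higher and 2 lower at P3. Relative to the median gene, 4 of these were called higher and 6 lower at P1, and 6 higher and 7 lower at P3. Slc2a1, the glucose transporter GLUT1, was 4.04 and 4.20 higher, while Egln1, an oxygen-sensing hydroxylase, had -1.49 and -1.73, and Pdk1, a kinase that inhibits pyruvate dehydrogenase, had -1.23 at P3.

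**Figure D5:**
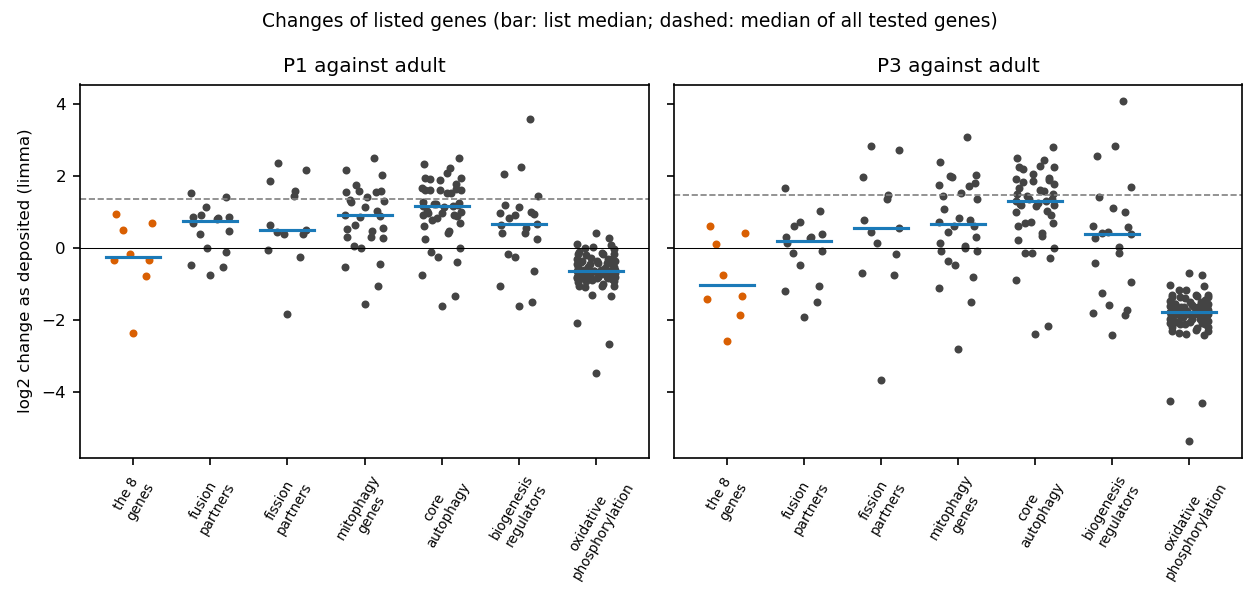
Log2 change against adult on the deposited scale for the 8 genes (orange) and for the tested genes of 6 lists (dark grey), at P1 (left) and P3 (right). Blue bars are list medians, and the dashed line is the median of all tested genes, 1.36 at P1 and 1.48 at P3. The partner lists have medians of 0.75 and 0.49 at P1, between the oxidative phosphorylation genes at -0.64 and the median of all genes.

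The genes most like each of the 8 were found by the root mean square difference of log2 profiles over the 15 libraries, each centred on its own mean. Such likeness is set by all that the libraries share, age group included, and is a description. Mfn2 was closest to Dlat, a subunit of pyruvate dehydrogenase, at 0.12, and Mfn1 to Atp5b, the beta subunit of ATP synthase, at 0.15, and then to Pdhx, also of pyruvate dehydrogenase, at 0.15. Opa1 was closest to Cog6, Dnm1l to Pja2, Mff to Cops3 and Fis1 to Ubl5, at 0.11 to 0.13. Pink1 had more distant neighbours, with Apbb1 at 0.22 and Svip at 0.25. Bnip3 stood apart most, with the HIF target Pdk1 at 0.42 as its closest and the next gene at 0.53. By Pearson correlation over the 8 neonatal libraries alone, its closest genes were Selenbp1 (0.973), Egr1 (0.965) and Pygl (0.931). None of these was in the HIF target list. Among the 8 genes themselves, Mfn1 and Mfn2 were the closest pair, at 0.26, followed by Dnm1l and Mff at 0.33, and Dnm1l and Pink1 were the farthest apart, at 1.62.

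By the GENCODE annotation of the same build all 8 are protein-coding genes. Exons of Dnm1l, Mff and Bnip3 overlap exons of an RNA gene on the opposite strand, Gm49521, C430014B12Rik and Gm45507, none of which is in the table. The strand used in counting is not known from these sources, and reads of these 3 genes and of their antisense neighbours cannot be told apart. Whole reads could be recovered for 7 of the 8 genes, all but Mfn2, at 194 to 4178 reads per gene and library, a counting error of 7.18% or less for a single value.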

How the data were processed

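The authors deposited 1 table of RPKM with a column for each of the 15 libraries. Per the submitters' processing notes, tools were HISAT2 and Partek 6.6 and the build was mm10. Gene models, read counting settings and strandedness: not given in the sources used here. The table holds 9666 rows under 9665 names, the lowest value is 0.1001 RPKM, and genes lower than that in any library are not analysed here. RPKM sums ran from 145050 to 321035.

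Log2(RPKM + 0.5) of the 9389 rows with at least 1 RPKM in at least 4 libraries was fitted with limma 3.58.1 in R 4.3.3 (1 coefficient per group, eBayes with trend), adjusted by the Benjamini-Hochberg method. The pseudocount of 0.5 makes a fold change on this scale understate changes of low genes. Ratios of 2 genes in a library were compared by exact two-sided permutation tests in scipy 1.17.1. Relative depth was read from the steps of the RPKM values, as a percentage of P1 replicate 2. It was 59.5 to 105.1% in adult replicates 1 to 4 and 159.3 to 162.9% in adult replicates 5 to 7. In P1 libraries it was 99.7 to 106.8% and in P3 libraries 89.8 to 129.0%. Whole reads were recovered for 8223 genes (85.1% of the table) within a relative tolerance of 3e-05. Read sums over these genes alone, which are not library depth, were 1082386 to 1300809 in adult replicates 1 to 4. They were 2755967 to 2941513 in adult replicates 5 to 7, 3773980 to 4012181 in the P1 libraries and 4039275 to 5464233 in those of P3. No count test was run on the recovered reads, because the value of a read depends on a gene length that is not in the file. The scripts were tested on simulated data.

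Replicate numbers were not used as pairs: same-numbered libraries had correlations of -0.51 to 0.37. Adult replicates 1 to 4 and 5 to 7 differ in read step and depth, and the labels name no batch, so results against each set are given where they change a call. The 8 genes and all lists were chosen with earlier results of these data known. Named besides the 8 were up to 3 called genes per list, direction and comparison with the largest change. Of these, Bnip3l, Yme1l1, Miga1 and Oma1 are given also on the other scale. Also named were the 3 genes most like each of the 8, of which the text gives examples. For Bnip3 the 3 most like it in the neonatal libraries are added. Alternatives covered the pseudocount, the filter, 6 scalings, the replicate block, the adult libraries used, each library left out and the variance model. One alternative, without replicate 1 of P1 and of P3, was added after seeing the data. Positions are from GENCODE for mm10 and promoters from RefSeq for GRCm38.p6.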

Additional observations from a re-analysis of the deposited data

Results flagged for a closer look

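Of 36 groups of values examined, for the 8 genes and the 4 ratios in each of the 3 ages, 4 held a library far from the others of its group by Dixon's criterion, where chance gives about 1 group in 20. Opa1 in P1 replicate 1, at 9.72 RPKM, lay below the other P1 libraries at 19.6 to 21.0 RPKM. In adult replicate 4 Fis1 was at 70.8 RPKM, against 20.2 to 27.0 RPKM in the other adult libraries. Pink1 was at 160.9 RPKM in the same library, against 92.6 to 104.8 RPKM. Its Mff to Fis1 ratio of 0.561 also lay below those of the other adult libraries. Adult replicate 4 had the highest RPKM sum of the adult libraries, at 280112, the highest mean log2 level of oxidative phosphorylation genes of all 15 libraries, at 9.18, and the highest endothelial marker level of the adult libraries, at 5.19.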

How the results depend on the processing

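Scaling set most of what changed. P1 against adult had 5 members called lower relative to the median gene, 5 under quantile normalization, 6 under median-of-ratios scaling, 4 at equal RPKM sums and 5 at equal sums without the 100 highest genes. P3 against adult had 7 relative to the median gene and 8 under median-of-ratios scaling. Against the deposited scale Dnm1l, Mff and Fis1 turned to -0.50, -0.96 and -0.75 at P1 and -1.14, -1.43 and -0.93 at P3 relative to the median gene. They turned to -0.30, -0.61 and -0.45, and -0.94, -0.99 and -0.50, under quantile normalization. Under median-of-ratios scaling they were -0.59, -1.06 and -0.85, and -1.21, -1.53 and -1.03. At equal sums without the 100 highest genes they were -0.039, -0.51 and -0.30, and -0.56, -0.86 and -0.36. At equal RPKM sums Mff was -0.20 at P1, Dnm1l -0.15 and Mff -0.44 at P3, and Fis1 0.044 between P3 and P1, where 1 member was called lower, as with a pseudocount of 0.1.

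Relative to the oxidative phosphorylation genes, 3 members were called higher at P1, 4 higher and 0 lower at P3, and 1 higher and 0 lower between P3 and P1. Signs turned for Mfn1 (0.33), Mfn2 (0.34) and Opa1 (0.48) at P1, and for Mfn1 (0.43), Opa1 (1.11) and Bnip3 (0.53) at P3. Between P3 and P1 they turned for Mfn1 (0.10), Opa1 (0.63), Dnm1l (0.66), Mff (0.82), Fis1 (1.11), Pink1 (0.99) and Bnip3 (0.64).

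With the replicate block, 1 member was called higher at P1 and 0 lower between P3 and P1, Opa1 was 0.10 at P1, and Bnip3 lost its P3 call (adjusted p = 0.051 in limma). The Mff to Fis1 difference over same-numbered libraries was 0.022, with no test. Each same-numbered library was the closest match in 0 cases against adult and 1 between P3 and P1. The labels do not say what the numbers mark, and whether same-numbered libraries share a litter or day was not tested. Against adult replicates 1 to 4 alone, 1 member was called higher at P1, Opa1 was 0.10, and the Mff to Fis1 difference 0.022. A fit of the 2 compared groups alone called 0 lower between P3 and P1.

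Leaving out each library gave 0 to 1 members called higher and 1 to 2 lower at P1, 3 to 4 lower at P3, and 0 to 2 lower between P3 and P1. At P1 Mfn2 was then -0.54 to 0.044 and Opa1 -0.27 to 0.084, both highest without P1 replicate 1. At P3 Mff was -0.055 to 0.20, lowest without P3 replicate 1. Without both, the added alternative, 1 member was called higher and 2 lower at P1, Mfn2 was 0.044 and Opa1 0.084 there, Mff was -0.055 at P3, and Bnip3 was 0.15 between P3 and P1. Smaller groups also raise the smallest p of the ratio tests. Mfn2 to Mfn1 at P3 was -0.30 and -0.62 against adult replicates 1 to 4 and 5 to 7 (-0.43 without both replicates 1), and -0.49 to -0.37 leaving out 1 library. Opa1 to Dnm1l at P1 was -1.03 and -1.25 (-1.03) and -1.18 to -1.03, and at P3 -1.06 and -1.28 (-1.18) and -1.20 to -1.10. Adjusted p reached at most 0.14 by the exact permutation test. Leaving out 1 library, Mfn2 to Mfn1 at P1 was -0.066 to 0.071 (-0.17 against adult replicates 5 to 7), Mff to Fis1 was -0.40 to -0.013 at P1 and -0.69 to -0.42 at P3, Opa1 to Dnm1l between P3 and P1 -0.12 to 0.029, and Pink1 to Bnip3 between P3 and P1 -0.17 to 0.84 (-0.65 without both). Except where a smaller group raises the smallest p, the cause of these changes was not tested.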
